A study of Sus scrofa with 2 samples.

Results

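CCL27 (ENSSSCG00000010967), also called CTACK, was followed in pig skin as the only member chosen among 31908 listed genes. It was taken by its symbol in the gene lists of both libraries, and its UMIs were read in every barcode. A UMI (unique molecular identifier) is a tag on each captured transcript by which PCR duplicates collapse to 1 count. Dorsal skin of healthy male farm pigs was dissociated to whole-skin single cells, and dead cells and doublets were sorted away before about 8000 cells were loaded on the 10x Genomics 3′ kit. The library labelled fresh came from cells given no treatment, and the cryopreserved library from cells frozen in 90% FBS and 10% DMSO and thawed. This rests on titles and treatment labels, because both samples carry 1 common protocol text, in which cells are frozen. There was 1 library per condition, and the labels do not tell whether both came from the same animal. No test between conditions was therefore possible, freezing cannot be told apart from any other difference between the libraries, and the 95% intervals below cover counting error only.

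CCL27 is a small secreted chemokine of the epidermis. Its receptor, CCR10, sits on T cells that home to skin, and the other ligand of CCR10 is CCL28, best known from mucosal epithelia. Skin homing also uses the receptors CCR4 and CCR8, the CCR4 ligands CCL17 and CCL22, and the fucosyltransferase FUT7, which builds the selectin ligand on T cells. In cultured keratinocytes, inflammatory cytokines acting through NF-kB raise CCL27 and signalling of the EGF receptor lowers it.

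In the RefSeq annotation of Sscrofa11.1, the build of the files, CCL27 lies on the plus strand of chromosome 10 from 32138232 to 32138980. It has 3 exons with 403 transcribed bases, of which 324 code for protein and 55 follow the stop as 3′ UTR. The neighbouring gene IL11RA, a cytokine receptor subunit, runs on the minus strand from 32138984 to 32149315, so that the 3′ ends of both genes lie 3 bases apart. CCL21 and CCL19, 2 other chemokine genes, lie 43749 and 25702 bases upstream. The 250 bases before the annotated start (chr10:32137982-32138231, plus strand) are shown because they are the closest upstream sequence to a gene with such a sharp cell-type pattern. Capitals mark the only match found.
CCL27 upstream: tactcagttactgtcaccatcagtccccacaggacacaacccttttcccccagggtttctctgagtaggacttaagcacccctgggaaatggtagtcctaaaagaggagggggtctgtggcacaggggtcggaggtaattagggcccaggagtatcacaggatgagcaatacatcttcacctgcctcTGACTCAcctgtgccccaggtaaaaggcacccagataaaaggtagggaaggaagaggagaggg
The AP-1 type motif TGANTCA was matched 1 time, with its first base 63 bases before the start, and was present in 5.27% of the 19569 upstream windows of protein-coding genes. The TATA box letters TATAAA, found in 9.77% of these windows, had no exact match here. Near matches were not searched, and the sequence holds gataaa close to its end, so a TATA-like element is not excluded. Both strands were searched. A match is only a description of the letters.

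The filtered data held 2775 fresh and 4223 cryopreserved cells, with a median of 11017 and 7945 UMIs per cell. Cells were kept at no more than 4500 genes, 30000 UMIs and 10% mitochondrial UMIs, the maxima of the study. Clustering both libraries together, with CCL27 left out of the variable genes, gave 24 clusters. Of these, 5 were named keratinocyte-like from epidermal keratins and junction genes. Among the filtered cells, 5 barcodes occurred in both libraries.

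CCL27 was almost wholly a keratinocyte transcript in these cells. Keratinocyte-like clusters had 530 fresh and 1058 cryopreserved cells. They held 16986 of 17074 CCL27 UMIs of the fresh library (99.5%, exact binomial interval 99.4 to 99.6%). In the cryopreserved library they held 31080 of 31424 CCL27 UMIs (98.9%). CPM here is a gene's UMIs per 1000000 UMIs of the same cells. The fresh keratinocyte-like cells had 2196 CPM (exact Poisson interval 2163 to 2230), and 85.7% of them carried at least 1 CCL27 UMI. The cryopreserved keratinocyte-like cells had 2919 CPM (2887 to 2952), with a UMI in 87.0%. After each cell was thinned to 1000 UMIs, the shares were 59.6% and 65.5%. Cells outside these clusters had 3.59 CPM in the fresh library and 13.2 CPM in the cryopreserved library, and 3.79% and 4.71% of them carried a CCL27 UMI. Thinned to 1000 UMIs, 0.405% and 0.923% of those cells did.

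**Figure D1:**
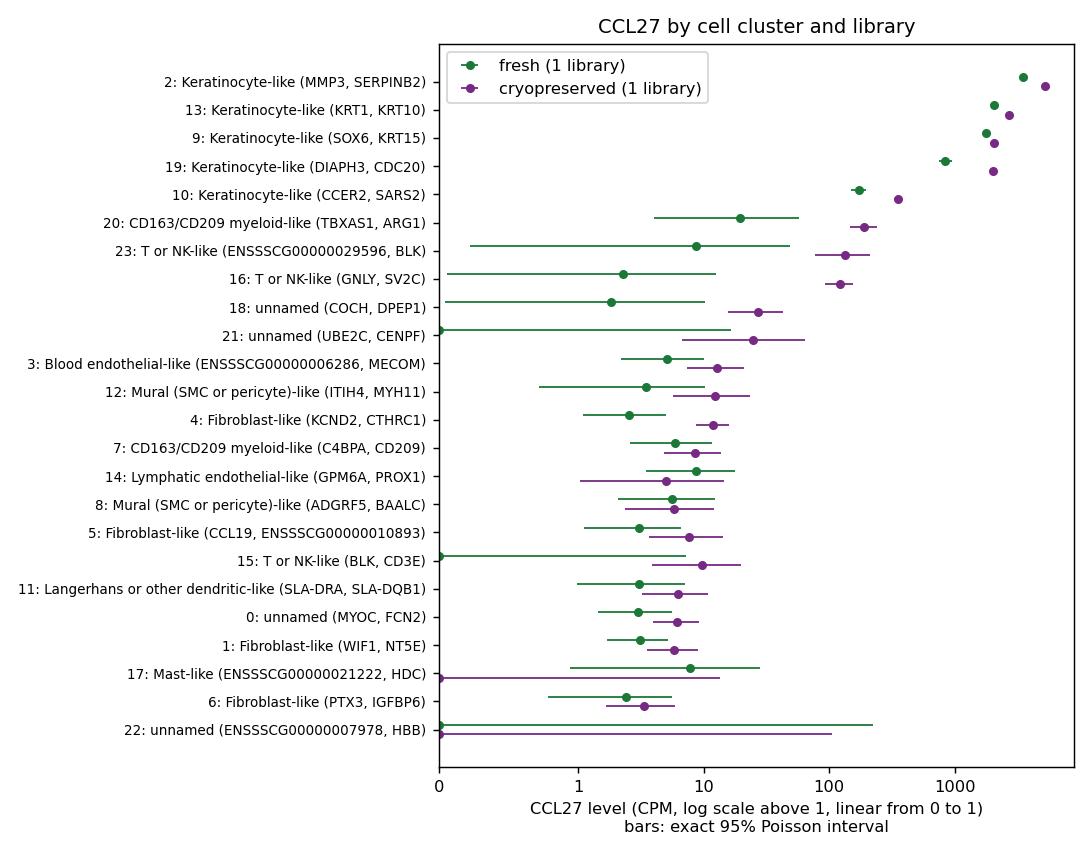
CCL27 level (CPM, logarithmic above 1) in each of the 24 clusters, named by class and leading genes, for the fresh (green) and the cryopreserved (purple) library; bars are exact 95% Poisson intervals. The 5 keratinocyte-like clusters lie at 172 to 5196 CPM, in the same order in both libraries, while the order of the other clusters differs between the libraries.

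The highest level lay in a keratinocyte-like cluster led by MMP3, a matrix protease, the serpin SERPINB2, the claudin CLDN4 and the EGF receptor ligand AREG. This MMP3/SERPINB2 cluster had 192 fresh and 370 cryopreserved cells. The marker lists named it suprabasal, as they did the cluster called suprabasal-like below, and it is called by its leading genes here. CCL27 reached 3521 CPM in its fresh cells (interval 3454 to 3590) and 5196 CPM in its cryopreserved cells (interval 5123 to 5269). With 6.92% of cells it held 60.9% of all CCL27 UMIs in the fresh library, and with 8.76% it held 61.8% in the cryopreserved one. Its median fresh cell had 47 CCL27 UMIs and its median cryopreserved cell 37, and the highest cells had 200 and 317. The 5 highest cells held 8.27% and 6.26% of its CCL27, so the level was spread over many cells.

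The suprabasal-like and basal-like clusters came next, and their site in the skin was not tested. The suprabasal-like cluster was led by the differentiation keratins KRT1 and KRT10 and by KRTDAP. It had 2074 CPM in 86 fresh cells and 2684 CPM in 156 cryopreserved cells. The basal-like cluster, led by SOX6, KRT15 and the hemidesmosomal collagen COL17A1, had 1787 CPM in 125 fresh cells and 2056 CPM in 225 cryopreserved cells. In the basal-like cluster 96.8% of fresh and 96.4% of cryopreserved cells carried a UMI, and in the suprabasal-like cluster 82.6% and 94.9% did. The suprabasal-like fresh cells were uneven, with 27.1% of their CCL27 in 5 cells and 946 CPM in the cells below the median depth against 2735 CPM in those above it. Their cryopreserved counterparts had 2500 CPM and 2782 CPM when split the same way. A cluster led by division genes such as DIAPH3 and CDC20 had 844 CPM in 23 fresh cells and 2008 CPM in 72 cryopreserved cells, with 64.4% and 41.9% of its CCL27 in 5 cells.

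The lowest keratinocyte-like level lay in the appendage-like cluster, whose leading genes include SOX9, a transcription factor of the hair follicle, PTHLH and MOXD1. The name rests on part of its marker list. SOX9, PTHLH and LHX2 were highest there in both libraries, while KRT7 was not in either. KRT75 had only 4 fresh and 2 cryopreserved UMIs in all keratinocyte-like cells. KRT17, KRT6A and KRT19 were not matched by name. CCL27 in the appendage-like cluster was at 172 CPM in 104 fresh cells (interval 150 to 196) and 352 CPM in 235 cryopreserved cells (interval 327 to 378). A CCL27 UMI was carried by 52.9% (fresh) and 52.8% (cryopreserved) of its cells, against 99.0% and 98.9% in the MMP3/SERPINB2 cluster. Ordered by the pooled CPM of both libraries, the MMP3/SERPINB2 cluster stood above the suprabasal-like cluster and that above the basal-like cluster. The last step was narrow. The fresh suprabasal-like interval, 1999 to 2151 CPM, included the cryopreserved basal-like level of 2056 CPM. Per fresh cell the order was reversed, with a median of 1172 CPM in the suprabasal-like and 1422 CPM in the basal-like cluster. The range of the dividing cluster, 844 to 2008 CPM, ran into that of the basal-like cluster, so these neighbours were not separated. The appendage-like cluster lay below all of them and above every other cluster of the same library.

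**Figure D2:**
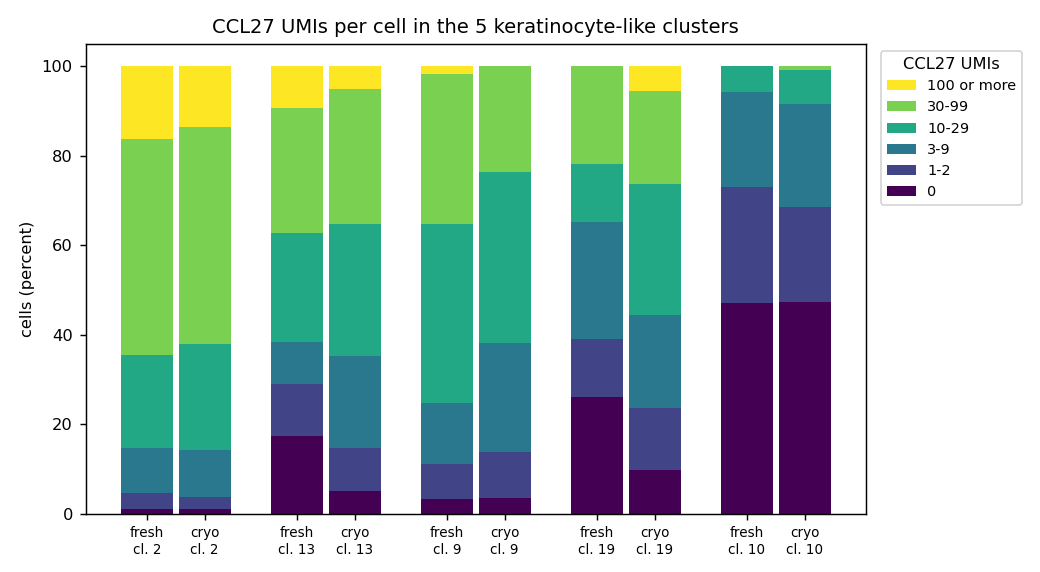
Share of cells (percent) by the number of CCL27 UMIs per cell in the 5 keratinocyte-like clusters (cl.) of the fresh and the cryopreserved (cryo) library. Clusters 2, 13, 9, 19 and 10 are the MMP3/SERPINB2, suprabasal-like, basal-like, dividing and appendage-like clusters; cells with 0 UMIs make up 1.04% of fresh cluster 2 and 47.1% of fresh cluster 10.

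The levels of the clusters named basal and suprabasal depended on the clustering. The suprabasal-named clusters, the MMP3/SERPINB2 cluster included, together had 3055 CPM fresh and 4381 CPM cryopreserved. With CCL27 kept among the variable genes, the suprabasal-named level became 2797 and 4184 CPM and the basal-named level 2579 and 3216 CPM. The basal-named level thus rose by over 1.5 times in the cryopreserved library, while it stayed below the suprabasal-named level. With CCL27 left out, basal-named levels were 2571 and 3166 CPM at resolution 1.2 and 2622 and 3313 CPM without integration. Which cells changed cluster was not followed.

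A score taken cell by cell was also used, the share of suprabasal-list UMIs among suprabasal-list and basal-list UMIs of a cell. This score was not independent of the clusters, since they decided which cells were scored and the same lists named them. It placed 1493 keratinocyte-like cells outside the dividing cluster into 5 ranges, and 444 of them lay within 1 point of a border. From the most basal to the most suprabasal range, the fresh level went through 1719, 1979, 2300, 2574 and 2580 CPM. The cryopreserved level went through 1670, 2614, 2980, 3368 and 3885 CPM. The median per cell went through 550, 1422, 1760, 1397 and 1727 CPM in the fresh library. In the cryopreserved library it went through 669, 1437, 1663, 2210 and 2695 CPM. With 10 ranges the level did not rise at every step in either library. Of the 5 ranges, both libraries were lowest in the most basal one, where the appendage-like cluster supplied 40.2% and 40.6% of the cells. Without that cluster, a choice made after seeing the data, the fresh level was 2602, 2609, 2753, 2891 and 2590 CPM, a ratio of highest to lowest of 1.12. In the cryopreserved library it was 2753, 3644, 4067, 3881 and 3906 CPM, with a ratio of 1.48. The cluster left out had the lowest keratinocyte-like CCL27 level, so leaving it out raises the ranges it supplied by construction. These ratios therefore cannot decide how CCL27 changes with differentiation. These ranges mix clusters, and the MMP3/SERPINB2 cluster was in every one of them, with 34.3% to 48.2% of the fresh cells of a range before the appendage-like cluster was left out.

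**Figure D3:**
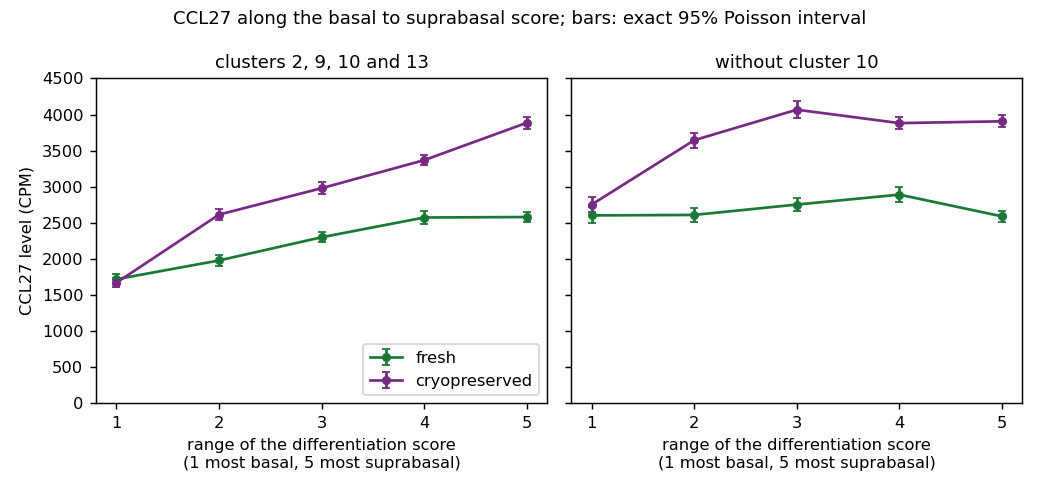
CCL27 level (CPM) in 5 ranges of the basal to suprabasal score, with (left) and without (right) the appendage-like cluster 10; bars are exact 95% Poisson intervals. The fresh line (green) goes from 1719 to 2580 CPM on the left and stays between 2590 and 2891 CPM on the right.

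Genes with the most similar pattern were sought over the 22 clusters with at least 10 cells in each library, of which 5 were keratinocyte-like. The values were log2(CPM + 10), and the likeness was the mean Pearson's r of both libraries. FAM83F came first (r = 0.99 fresh, 0.96 cryopreserved), followed by EXPH5, ENSSSCG00000026339, RIPK4, SERPINB5, WNT7B, CLDN4, ZDHHC18 and ENSSSCG00000037879. RIPK4 is a regulator of epidermal differentiation, SERPINB5 is the serpin maspin and WNT7B is a Wnt ligand. The points share 2 libraries and a large step in level between keratinocyte-like and other clusters. With Spearman's rho only 2 of the 10 most similar genes were again among the 10 most alike.

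Within the 1588 keratinocyte-like cells the step between lineages was absent, and r over cells was lower. The step between the appendage-like cluster and the other keratinocyte-like clusters remained. The most similar gene was TGM3, the epidermal transglutaminase (r = 0.60 fresh, 0.61 cryopreserved). It was at 1386 and 1152 CPM in the MMP3/SERPINB2 cluster against 39.7 and 24.9 CPM in the appendage-like cluster. GPNMB, LY6D, ZDHHC18, ADH1C, ROBO1, ENSSSCG00000026339, PRXL2A, SERPINB2 (r = 0.42 and 0.46) and WNT7B followed. LY6D is a surface protein of stratified epithelium, and ADH1C is an alcohol dehydrogenase. TGM3, GPNMB, ZDHHC18, ROBO1 and SERPINB2 were highest in the MMP3/SERPINB2 cluster in both libraries, as CCL27 was, and the others were not. For GPNMB and ROBO1 the cryopreserved values were nearly level with the basal-like cluster, at 589 against 587 CPM and 677 against 674 CPM. LY6D was at 5466 and 4779 CPM in the suprabasal-like cluster against 1848 and 1568 CPM in the MMP3/SERPINB2 cluster. PRXL2A was at 1542 and 1401 CPM in the basal-like cluster against 622 and 398 CPM there. The most opposite genes were MOXD1 (r = -0.49 in both libraries) and SOX9 (r = -0.39 and -0.48), both leading genes of the appendage-like cluster. The cells of a library share its depth and background, so these r are descriptions.

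Lists of related genes were compared by the keratinocyte-like cluster in which they peaked. Over 10709 genes with at least 50 UMIs in keratinocyte-like cells, 8.28% were highest in the MMP3/SERPINB2 cluster in both libraries, as CCL27 was. Of 5 genes for the EGF receptor and its ligands, 3 peaked there, the ligands AREG, EREG and HBEGF. AREG is also a leading gene of that cluster, so its peak there is not a separate result. AREG was at 398 CPM in this cluster of the fresh library and at 29.7 CPM in the basal-like cluster. EGFR itself was at 450 CPM in the MMP3/SERPINB2 cluster and 546 CPM in the appendage-like cluster of the fresh library, and at 518 and 511 CPM in these clusters of the cryopreserved one, so its order differed between the libraries. Of 7 measured NF-kB response genes, 3 peaked there, the inhibitors NFKBIA and TNFAIP3 and the subunit NFKB1. The others, NFKB2, RELB, ICAM1 and SOD2, were higher outside the keratinocyte-like clusters than in this cluster in both libraries. In the fresh library ICAM1 was at 2.03 CPM there and 392 CPM outside, and SOD2 at 81.5 and 918 CPM. NFKBIA had 2220 CPM in the MMP3/SERPINB2 cluster, 1009 CPM in the appendage-like cluster and 1539 CPM outside the keratinocyte-like clusters of the fresh library. In the cryopreserved library it had 1754 CPM in the MMP3/SERPINB2 cluster, 1671 CPM in the dividing cluster and 1553 CPM outside. The other peaks could be narrow too. TNFAIP3 was at 886 and 870 CPM in the MMP3/SERPINB2 and dividing clusters of the cryopreserved library. NFKB1 was at 949 CPM against 889 CPM in the appendage-like cluster of the fresh library.

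Other chemokines had other patterns. Of 9 measured chemokines and cytokines, CXCL8, the neutrophil attractant, had its highest keratinocyte-like level in the MMP3/SERPINB2 cluster in both libraries, at 9.81 and 18.2 CPM. These levels were far below the 271 and 293 CPM outside the keratinocyte-like clusters, so no keratinocyte expression is read from them. CXCL14, a chemokine of resting epithelium, was highest in the basal-like cluster, with 2283 and 2226 CPM against 717 and 549 CPM in the MMP3/SERPINB2 cluster and 36.6 and 51.4 CPM outside. CCL2, the monocyte attractant, was higher outside the keratinocyte-like clusters (2523 and 4554 CPM) than in any of them, the highest of which was the appendage-like cluster at 1030 and 1906 CPM. Of 8 measured basal genes 2 peaked with CCL27 (LAMB3 and TP63), and of 9 suprabasal genes 1 did (SPRP). These lists were also used to name or score the clusters. SERPINB2 and CLDN4 both peaked there and lead that cluster. None of the 4 measured appendage genes did.

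The other CCR10 ligand had another distribution. CCL28 was also nearly confined to keratinocyte-like cells, at 71.6 CPM fresh (interval 65.8 to 77.9) and 79.4 CPM cryopreserved (interval 74.1 to 84.9). It was highest in the suprabasal-like cluster, with 167 and 161 CPM, where 76.7% and 76.9% of cells carried a UMI. In the MMP3/SERPINB2 cluster it was at 45.7 and 64.8 CPM. The 2 ligands therefore peaked in different keratinocyte-like clusters in both libraries, although the marker lists named both clusters suprabasal.

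Their receptor was found among T or NK-like cells. CCR10 had 20 UMIs in 145 fresh T or NK-like cells (18.8 CPM, interval 11.5 to 29.1) and 42 UMIs in 254 cryopreserved ones (30.9 CPM, interval 22.3 to 41.8). It was detected in 11.7% and 13.4% of these cells at a median depth of 6512 and 4813 UMIs. In fibroblast-like cells, with a median depth of 13612 and 10708 UMIs, it was detected in 0.602% and 0.67%. Most of these UMIs, 15 fresh and 35 cryopreserved, were in 1 T cell cluster with CD3E among its leading genes, at 29.5 and 48.3 CPM. Keratinocyte-like cells had 1 CCR10 UMI in each library.

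Further homing genes were split between the same classes and dendritic-like cells. FUT7 was at 28.2 and 31.7 CPM in T or NK-like cells. CCR8 was at 13.2 and 10.3 CPM there, from 14 UMIs in each library. CCR4 was at 5.64 and 6.63 CPM there, from 6 and 9 UMIs. CCL17 (13.5 and 39.6 CPM) and CCL22 (33.1 and 16.2 CPM) were found in Langerhans or other dendritic-like cells, and keratinocyte-like cells had 0 CCL22 UMIs and at most 1 CCL17 UMI per library. SELE, SELPLG and CCL20 were not matched by name and were not analysed here.

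**Figure D4:**
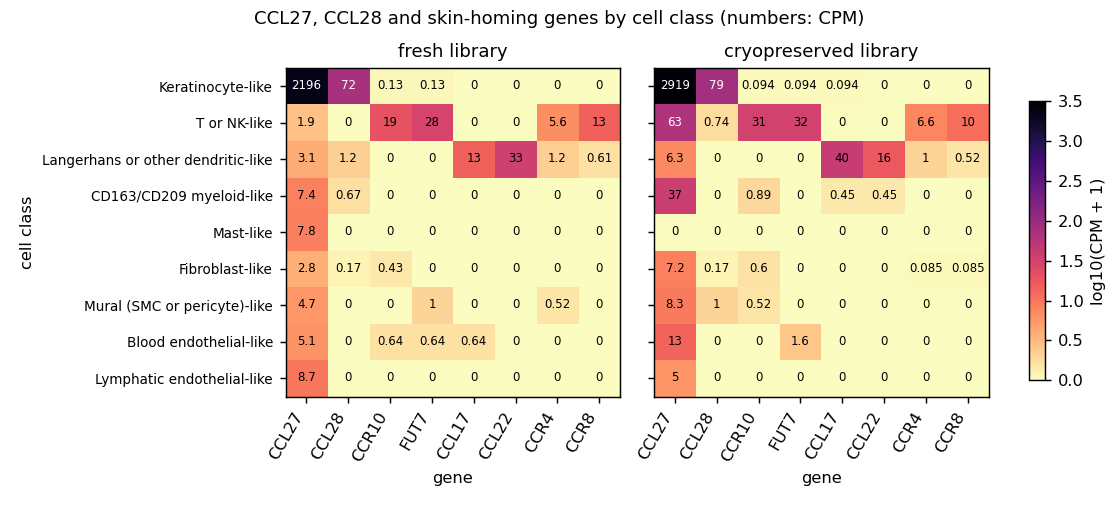
Levels of CCL27, CCL28 and 6 homing genes (columns) in 9 cell classes (rows) of the fresh (left) and cryopreserved (right) library; colour is log10(CPM + 1) and the numbers are CPM. CCL27 and CCL28 are high in keratinocyte-like cells, CCR10 and FUT7 in T or NK-like cells, and CCL17 and CCL22 in dendritic-like cells.

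Outside the keratinocyte-like clusters the fresh class levels ran from 1.88 CPM in T or NK-like cells to 8.65 CPM in lymphatic endothelial-like cells. No fresh cell there had more than 2 CCL27 UMIs. In the cryopreserved library 8 cells had 5 or more, and they held 190 of the 344 UMIs (55.2%). They were spread over T or NK-like (2), CD163/CD209 myeloid-like (3), fibroblast-like (1), blood endothelial-like (1) and unnamed (1) cells. Their median count of KRT5, KRT15, KRT1 and KRT10 together was 54.5 UMIs, against a median of 0 in the other cells, and 6 of the 8 were among the 6% with the highest doublet score. In cryopreserved T or NK-like cells (62.6 CPM) 10 cells held all 85 UMIs, 1 of them with 59, and in myeloid-like cells (36.6 CPM) 16 cells held 82, 1 of them with 59. Without the 8 cells, all cells outside were at 5.94 CPM. Mast-like cells had CCL27 in 0 of 82 cryopreserved cells, which allows a share of cells with a UMI of up to 3.66% (3 counts of the total) at these cells' low depth.

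The low counts outside were also set against these 4 keratins. Per 100 keratin UMIs there were 7.23 CCL27 UMIs in fresh keratinocyte-like cells and 5.55 (interval 4.45 to 6.84) in all other fresh cells. In the cryopreserved library there were 10.2 in keratinocyte-like cells, while in all other cells the interval was 9.95 to 12.3. That pooled value covers 42.5 in T or NK-like and 6.02 in fibroblast-like cells, and without the 8 cells it was 6.92 (interval 5.87 to 8.10). Pooled, the fresh cells outside thus had fewer CCL27 UMIs per keratin UMI than the fresh keratinocyte-like cells. Single fresh classes lay on both sides of the keratinocyte-like value, most of them with wide intervals. In the cryopreserved library the interval over all cells outside included the keratinocyte-like value. The 8 cells were picked by their CCL27 count. Leaving them out therefore lowers the CCL27 count by construction, and 6.92 cannot decide the order in that library. KRT5, KRT15, KRT1 or KRT10 was itself detected in 41.0% of fresh and 35.0% of cryopreserved cells outside, and the part of free RNA in these counts was not tested. The genome neighbour IL11RA did not follow CCL27, with 25.1 and 23.1 CPM in keratinocyte-like cells and 43.1 and 47.2 CPM outside. CCL19, the next chemokine upstream that was matched, was at 177 and 164 CPM outside and at 1.68 and 5.07 CPM in keratinocyte-like cells.

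Between the libraries, CCL27 was higher in the cryopreserved one in each keratinocyte-like cluster. Over all filtered cells it was at 529 CPM fresh and 857 CPM cryopreserved, a ratio of 1.62 (interval 1.59 to 1.65) or 0.70 on the log2 scale. Of the 11692 genes with at least 200 UMIs, 0.992% were at least 2-fold apart and 2.42% were as high or higher in this ratio than CCL27. Keratinocyte-like cells made up 19.1% (fresh) and 25.1% (cryopreserved) of all cells. With the fresh class shares applied to both libraries the log2 ratio was 0.42.

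Within keratinocyte-like cells the ratio was 1.33 (interval 1.30 to 1.35), a log2 ratio of 0.41 that 10.4% of 7758 genes reached. The 2-fold mark was passed by 1.07% of these genes and not by CCL27. Without the dividing cluster, whose leading genes mark division rather than keratinocytes, the ratio was also 1.33. By cluster it was 1.48 in the MMP3/SERPINB2 cluster, 1.29 in the suprabasal-like cluster and 1.15 in the basal-like cluster, reached by 4.11%, 11.5% and 23.5% of the genes measured there. It was 2.05 in the appendage-like cluster (interval 1.76 to 2.39), reached by 0.67% of 3134 genes, while 1.24% of them were 2-fold apart in either direction. In the dividing cluster it was 2.38 (interval 2.09 to 2.72), reached by 2.58% of 1086 genes, while 7.0% of them were 2-fold apart. Outside the keratinocyte-like clusters it was 3.68 (interval 2.91 to 4.71), where 0.958% of 10747 genes were 2-fold apart, and the 8 cells above bear on it. Among the keratinocyte-like clusters, the appendage-like and dividing ones were past 2-fold, and they have the fewest CCL27 UMIs and the largest shares in 5 cells.

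**Figure D5:**
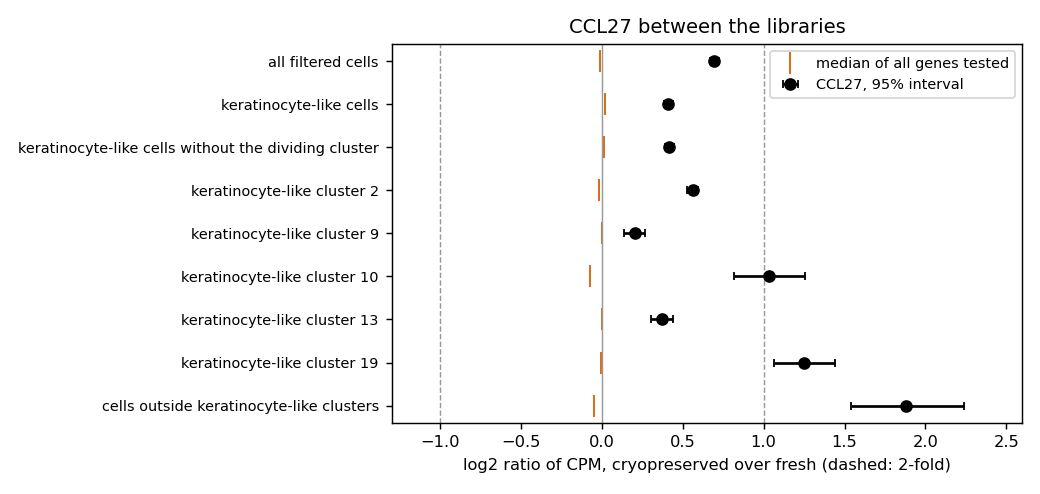
Log2 ratio of CCL27 CPM, cryopreserved over fresh, in all cells, in keratinocyte-like cells and their 5 clusters, and outside them (black points, bars are 95% intervals for counting error); orange marks are the median of all genes tested. CCL27 lies between 0.20 in cluster 9 and 1.25 in cluster 19 among the keratinocyte-like clusters, and the 1.88 outside becomes 0.73 without 8 cells.

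The gene and UMI maxima removed more CCL27 from the fresh than from the cryopreserved library. Barcodes above them held 44.2% of all fresh CCL27 UMIs and 12.7% of the cryopreserved ones. When keratinocytes were instead taken as all barcodes within the mitochondrial limit with at least 0.5% of their UMIs on the 4 keratins, a choice made after seeing the data, 719 fresh barcodes had 2088 CPM and 1099 cryopreserved barcodes had 2829 CPM. The log2 ratio was then 0.44.

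Among the lists within keratinocyte-like cells, where 2.98% of 10709 genes were at least 2-fold apart (2.21% higher and 0.766% lower in the cryopreserved library), no EGF receptor, NF-kB, basal or suprabasal gene was. CXCL10, an interferon-induced chemokine, was at 70.9 CPM in the fresh and 19.5 CPM in the cryopreserved library, a log2 ratio of -1.86. The basal-like cluster carried this difference, at 306 and 30.7 CPM, while the MMP3/SERPINB2 cluster had 0 and 16.9 CPM and the suprabasal-like cluster 1.42 and 37.4 CPM. Of 4 measured appendage genes, 3 were at least 2-fold higher in the cryopreserved library, SOX9, LHX2 and KRT7, with SOX9 at 33.1 and 67.7 CPM. LHX2 rested on 20 fresh and 76 cryopreserved UMIs, and KRT7 on 14 and 40 (log2 interval 0.14 to 2.05). KRT7 was not highest in the appendage-like cluster in either library. The appendage-like cluster supplied 104 of the 530 keratinocyte-like cells in the fresh library and 235 of 1058 in the cryopreserved one, and its part in these ratios was not tested. The medians of the lists were 0.25 for the EGF receptor and its ligands, 0.17 for NF-kB response genes and 0.15 for chemokines and cytokines. They were 0.07 for suprabasal, -0.17 for basal and 1.04 for appendage genes. The listed genes needed at least 50 UMIs, while the median of 0.02 over 7758 genes is for at least 200 UMIs. Of 8 basal genes 7 were lower in the cryopreserved library, but the shifts were small. They ran from a log2 ratio of -0.07 for ITGB4 (interval -0.16 to 0.03) to -0.30 for KRT15. The share of all genes that were lower was not counted, so no shift particular to basal genes is read from this.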

How the data were processed

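The authors processed the reads of both libraries with Cell Ranger 4.0.0 and STAR 2.5.1b against Sscrofa11.1 with the Ensembl annotation and deposited raw UMI counts per gene and barcode. The deposited matrices sum to 53271738 (fresh) and 42217632 (cryopreserved) counts. From these counts, cells within 4500 genes, 30000 UMIs and 10% mitochondrial UMIs (13 genes) were kept. They were integrated and clustered with Seurat 5.3.0 (2000 variable features less CCL27, 30 dimensions, resolution 0.8), and clusters were named from marker lists. Counts were summed per library and cluster and divided by total UMIs. Intervals are exact Poisson, Clopper-Pearson or conditional binomial ones. Scrublet (scanpy 1.11.5) called 8 cells per library, and these were kept. The study sorted cell doublets away before loading, which does not cover doublets formed after that step. R 4.3.3, edgeR 4.0.16 and DESeq2 1.42.0 gave alternative scalings. Named genes were the 10 most alike over clusters and over cells, the listed genes and the neighbours within 50000 bases. Some genes that the rule names are not reported here. The gene, lists and markers were chosen with earlier results of these data known. The ratio code was checked on simulated data. With 1 library per condition no test was run.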

Additional observations from a re-analysis of the deposited data

Results flagged for a closer look

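CCL27 was also found in barcodes that the maxima removed and that the comparisons did not use. Barcodes above the mitochondrial limit had 217 CPM in the fresh and 1274 CPM in the cryopreserved library, from 1004 and 446 barcodes. Barcodes above the gene or UMI maximum had 741 CPM in the fresh and 1031 CPM in the cryopreserved library, from 600 and 191 barcodes.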

How the results depend on the processing

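No paired analysis was possible because there was 1 library per condition. Of 110 alternative values, 56 stayed within the counting interval of the reported value (or within 1.5 times a reported count) and 54 moved. Only log2 ratios could change sign, and none did. Other clusterings of the same filtered cells left the pooled keratinocyte-like levels, shares and log2 ratio identical. Those values among the 56 therefore repeat each other and are not separate checks. The causes of the moves were not tested. The log2 ratio over all cells was 0.73 with TMM, 0.74 with DESeq2 size factors, 0.58 over all deposited barcodes, 0.77 without the mitochondrial limit and 0.42 with fresh class shares. Within keratinocyte-like cells it was 0.53 without the mitochondrial limit and, in alternatives added after seeing the data, 0.49 with fresh cluster shares, 0.35 with a keratin gate on filtered cells and 0.44 with that gate over all barcodes within the mitochondrial limit. Outside them it was 1.88, and 0.73 without the 8 cells, which also took CCL27 per 100 keratin UMIs in the cryopreserved library to 6.92. Keratinocyte-like levels (fresh, cryopreserved) were 2100 and 2819 CPM without the 5 highest cells of each library, 2238 and 2960 CPM without the 6% highest doublet scores, 2017 and 2850 CPM as means of cell CPM, 2088 and 2829 CPM with the keratin gate, and 2034 CPM fresh without the mitochondrial limit. The share of CCL27 UMIs in them was 99.1% and 98.7% without the mitochondrial limit and 99.5% in the cryopreserved library without the highest doublet scores. Basal-like levels, reported as 1787 and 2056 CPM, were 2579 and 3216 CPM with CCL27 variable, 2571 and 3166 CPM at resolution 1.2, 2622 and 3313 CPM without integration and, fresh, 1700 CPM as means of cells. All suprabasal-named clusters together, the MMP3/SERPINB2 cluster included, had 3055 and 4381 CPM, and 2797 and 4184, 2810 and 4194, 2796 and 4326, and 2941 and 4459 CPM under these, and 2687 and 3741 CPM at resolution 0.4, where no cluster was named basal. The shares of keratinocyte-like cells with a UMI became 59.6% and 65.5% on thinning, and those of other cells 0.405% and 0.923%. Of genes at least 2-fold apart there were 116 over all cells, 395 with a minimum of 50 UMIs and 2397 with 1 UMI in each library, and 83, 319 and 2260 in keratinocyte-like cells. Of the 116, 62.1% were higher in the cryopreserved library, and 71.4% with DESeq2 size factors. Of the 10 most similar genes, 2 stayed with Spearman's rho and 6 with a pseudocount of 1. The highest over lowest level along the score was 2.02 and 2.54 in 10 ranges, and 1.12 and 1.48 without the appendage-like cluster. Depth limits the classes outside keratinocytes, most of which rest on under 50 CCL27 UMIs.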
